A study of Mus musculus with 30 samples.

Results

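The genes described here are those of the oxidative phosphorylation machinery encoded in the nucleus, chosen by name from the probes of a mouse expression array. A gene was a member where its name on the array began with Nduf, Uqcr, Cox4, Cox5, Cox6, Cox7, Cox8 or Atp5, or was Sdha, Sdhb, Sdhc, Sdhd or Cyc1, pseudogenes left out. The rule found 91 gene names with 135 probes among the 34844 names and 55681 probes of the array. Of these, 86 genes with 126 probes were measured, meaning that 15 or more of the 30 arrays read a probe well above its background, and 82 genes had a probe above background on all 30. Across the array 17485 genes passed the same filter.

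The oxidative phosphorylation system lies in the inner mitochondrial membrane. Complex I takes electrons from NADH and complex II from succinate, complex III passes them to cytochrome c, and complex IV hands them to oxygen, while complexes I, III and IV pump protons. Complex V, the ATP synthase, lets the protons flow back and makes ATP. Most subunits come from nuclear genes, a small group comes from mitochondrial DNA, and circulating lymphocytes and monocytes rely on the system to different degrees.

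The RNA came from peripheral blood mononuclear cells, the lymphocytes and monocytes of blood, purified on Ficoll from female C57BL/6J mice aged 6 weeks. The study asks how blood cells respond to acute lung injury, for which oleic acid, a fatty acid that damages the lung when it enters a vein, was injected into the tail vein at 1.2 µl per g of body weight. Controls received physiological serum in the same volume of 200 µl, and both groups were anaesthetised with xylazine and ketamine. Blood was taken at 1, 1.5, 3, 4, 18 or 24 h, and 200 ng of RNA per sample was labelled with Cy3 and hybridised in 1 colour. The serum groups held 3, 3, 2, 1, 2 and 2 arrays in order of time and the oleic acid groups 3, 3, 3, 2, 3 and 3. The design counts 30 mice, the number of arrays. Each array is therefore treated as a separate mouse, and p-values measure the spread between these arrays. Levels are log2 signals relative to the 75th percentile of each array. Differences are oleic acid minus serum on the log2 scale, with limma's standard error (SE), which pools all 12 groups, and adjusted p-values are Benjamini-Hochberg values from limma over all genes, called at 0.05.

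Arrays also differed in slide, scan day and signal, in part along with treatment, and the number of arrays limits the precision. There were 5 slides scanned on 2 days, and the second day held slide 5 alone, with 5 oleic acid arrays and no serum array. The 75th percentile of the signal ran from 40.2 to 152 and the share of probes well above background from 34.6% to 64.8%. The signal of long intergenic RNA probes, relative to probes detected on all arrays, had a median of -3.93 on the log2 scale and was highest in serum 24 h replicate 1 (-1.87) and oleic acid 4 h replicate 2 (-2.07). The same pair of arrays had the lowest median level of always-detected probes, 1.04 and 0.99 against a median of 1.87 over the 30 arrays. Of the marker genes of the cells that the preparation should hold, 14 of 14 for T cells, 13 of 13 for B cells, 10 of 10 for NK cells and 11 of 13 for monocytes were measured. Markers of neutrophils (15 of 15), platelets (14 of 14) and erythroid cells (13 of 14) were measured as well.

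For members with the smallest p-value of their complex at 24 h, promoters were searched for motifs of factors known to act on respiratory genes. RefSeq start sites (GRCm38.p6) were matched for 71 of the 86 measured genes, with 77 windows of 300 bases. The stretches shown run from 130 bases before to 20 bases after the first listed start site of Ndufa8 at chr2:36049319-36049468 (minus strand), Sdhb at chr4:140961141-140961290 (plus strand) and Cox5b at chr1:36691357-36691506 (plus strand), and capitals mark the motif matches.
Ndufa8: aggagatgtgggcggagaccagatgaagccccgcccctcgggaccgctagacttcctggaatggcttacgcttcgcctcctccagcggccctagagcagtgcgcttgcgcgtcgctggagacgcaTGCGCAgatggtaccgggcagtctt
Sdhb: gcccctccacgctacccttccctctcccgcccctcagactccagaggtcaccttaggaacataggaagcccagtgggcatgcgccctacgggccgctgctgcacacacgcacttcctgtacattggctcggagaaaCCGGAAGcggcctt
Cox5b: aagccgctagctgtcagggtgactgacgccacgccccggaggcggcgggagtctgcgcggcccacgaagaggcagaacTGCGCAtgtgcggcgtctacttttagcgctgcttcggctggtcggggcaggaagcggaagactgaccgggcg
The capitals in Ndufa8 and Cox5b are the NRF1 core TGCGCA, whose first base lies at position -5 and -52 from the start site. Sdhb carries the ETS-family motif CCGGAAG (GABPA is a member of this family) with its first base at position 7. The corresponding stretches of Atp5g1 and Uqcr10 held none of the 4 motifs searched. Over whole windows and both strands, TGCGCA occurred in 20 of 77 member windows (26.0%) and in 7.76% of 32851 windows of all genes. CCGGAAG occurred in 17 member windows (22.1%) against 8.86% of all windows, and the YY1 motif AAGATGG in 13 (16.9%) against 6.34%. AAGGTCA, the motif of estrogen-related receptors, occurred in 8 member windows (10.4%) against 4.72%. The letters AAG at the end of CCGGAAG can also begin AAGATGG or AAGGTCA, and a match is a description of letters, not a binding site.

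Across the 30 arrays the mean level of the 86 genes ran from 2.68 to 4.42, with a median of 3.92. Serum 24 h replicate 1 was lowest and oleic acid 4 h replicate 2 followed at 2.91, whereas the other 28 arrays lay between 3.45 and 4.42. At 24 h the serum arrays stood at 2.68 and 3.80 and the oleic acid arrays at 4.12, 4.19 and 4.24. The oleic acid arrays at 24 h therefore lay above both serum arrays and close to each other, while the serum arrays lay far apart. At 4 h the single serum array stood at 4.00 and the oleic acid arrays at 3.90 and 2.91. In bulk RNA of this kind, fewer cells of a type and less RNA per cell cannot be told apart.

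**Figure D1:**
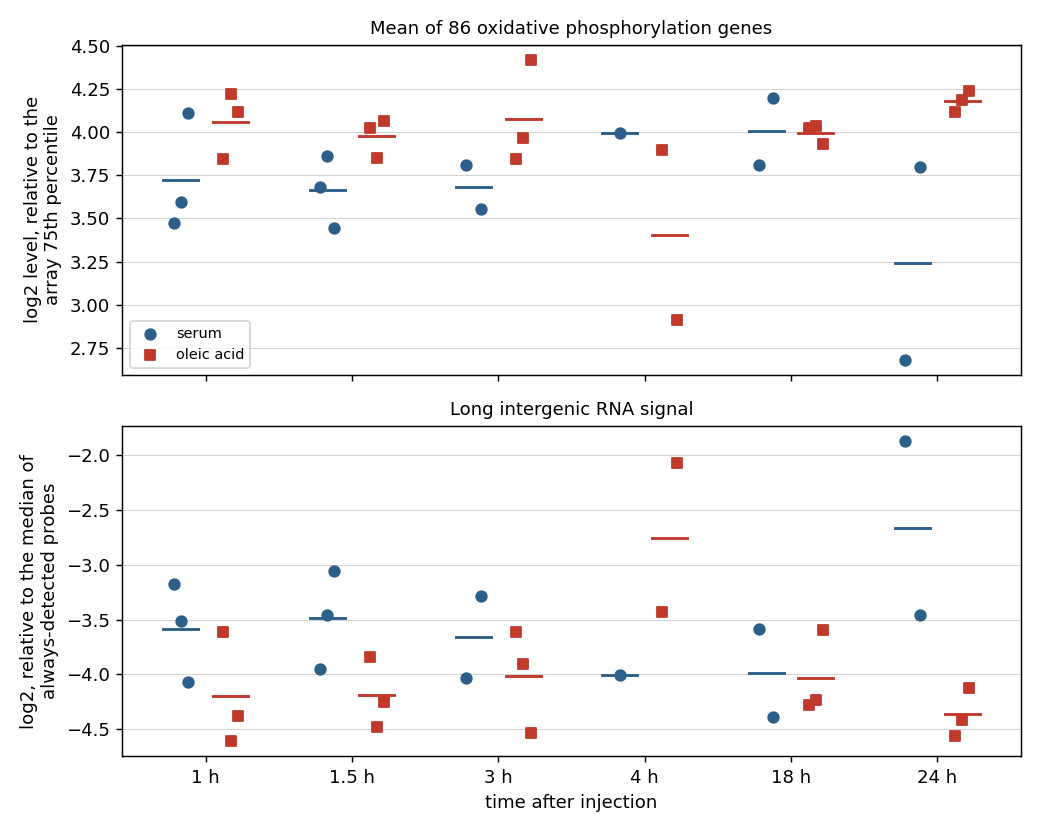
Each point is 1 array, placed by time after injection, with serum in blue circles and oleic acid in red squares, and the bars are group means. The upper panel gives the mean log2 level of the 86 genes relative to the array's 75th percentile and the lower panel the long intergenic RNA signal on the log2 scale. Serum 24 h replicate 1 (2.68) and oleic acid 4 h replicate 2 (2.91) are lowest above and highest below (-1.87 and -2.07).

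At 24 h, 36 of the 86 genes rose with oleic acid and 0 fell by limma with Benjamini-Hochberg adjustment. Of all 17485 genes tested 22.9% were called at 24 h, 18.1% as higher and 4.84% as lower. The median difference of the members was 0.96, against 0.49 for all genes and 0.61 for genes above background on every array. In 83 of 86 genes the difference was above 0 (65.8% of all genes), and 65 had an unadjusted p under 0.05 (43.1% of all genes). In 67 all oleic acid arrays lay above both serum arrays, which held for 35.4% of all genes. The size depended on the scaling. With arrays scaled on the always-detected probes the median was 0.45 against -0.0176 for all genes, and 10 of 86 members were called, all among the 36, beside 12.8% of all genes. There 46.1% of the calls over all genes were in the higher direction, rather than 78.9%. With quantile normalization, normexp with quantile normalization and the authors' deposited values, 19, 20 and 15 members were called, beside 26.0%, 20.5% and 20.0% of all genes. Under these scalings and in the deposited values, the share of members called thus lay near that of all genes called in both directions together. With always-detected scaling and quantile normalization every member called was higher, against 46.1% and 76.6% of the calls over all genes.

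The 24 h calls moved with single arrays. Without serum 24 h replicate 1, 0 of 86 members passed and the median was 0.36, against 0.12 for all genes, with 81 of 86 differences above 0 and 0.0172% of all genes called. Without serum 24 h replicate 2, 70 passed with a median of 1.65, beside 51.2% of all genes and a median of 0.91. Leaving out oleic acid 24 h replicate 1, 2 or 3 left 1, 2 and 0 members called, beside 1.55%, 2.97% and 0.0572% of all genes, while the median stayed between 0.91 and 1.04. With slide as a block 0 members passed (median 0.85), beside 0.0114% of all genes. No slide held both treatments at 24 h, because both serum arrays were on slide 1. With the long intergenic signal as a covariate 0 members passed, beside 0.0114% of all genes, and the median was 0.05. The part of slide and of intergenic signal in the 24 h difference was not tested beyond these fits.

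**Figure D2:**
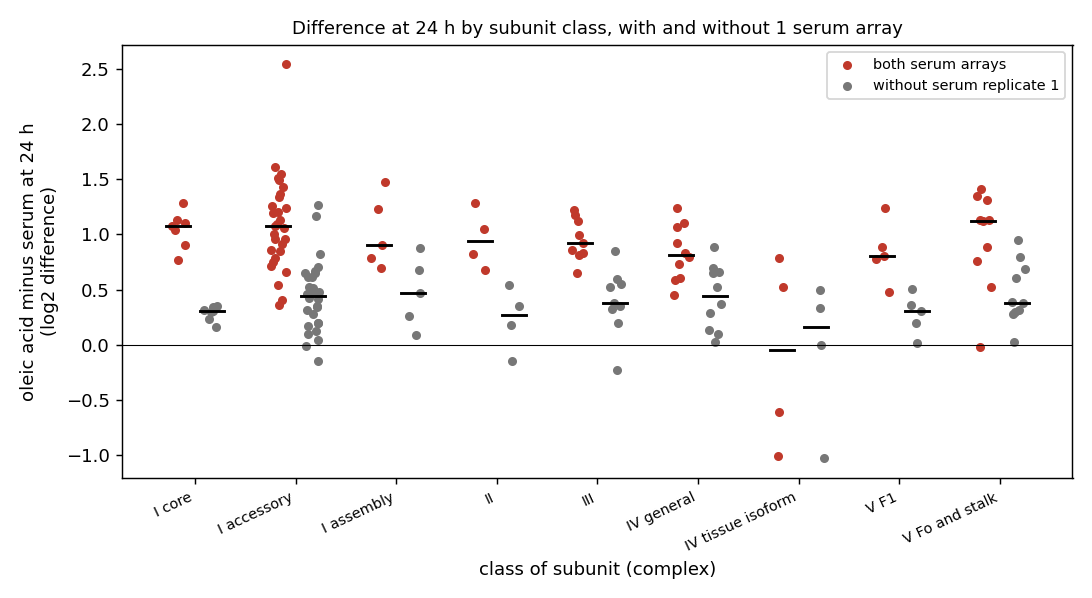
Each point is 1 gene, grouped by class of subunit, and the y axis gives the log2 difference of oleic acid minus serum at 24 h with both serum arrays (red) and without serum replicate 1 (grey). Black bars are medians of the class, and over the 86 genes the median is 0.96 with both arrays and 0.36 without replicate 1. The tissue isoforms of complex IV spread around 0, and Ndufa4, Cox7a2l and Cox4nb are not drawn.

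Complex I, the largest complex, had a median difference of 1.08 at 24 h, and 19 of its 36 subunit genes rose. All 36 differences were above 0, from 0.36 to 2.54. Here and for the other complexes, counts of genes that rose stand beside 18.1% of all genes called as higher at 24 h. No test set a complex apart. Of the 7 core subunits, which hold the flavin and iron-sulfur centres that carry electrons, Ndufv2 and Ndufv1 were among those that rose. The core subunit Ndufv2 read 1.28 and 3.14 in serum and 3.58, 3.43 and 3.47 with oleic acid, a difference of 1.28 (SE 0.42, limma adjusted p = 0.0376). Ndufs1, the large iron-sulfur subunit, had a difference of 0.77 and did not pass (adjusted p = 0.0721 by limma).

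Among the 29 accessory subunits of complex I, 16 rose. Ndufa8, a subunit with paired cysteine motifs facing the intermembrane space, read -2.31 and 0.24 in serum and 1.49, 1.498 and 1.54 with oleic acid. The fitted difference was 2.54 (SE 0.51, limma adjusted p = 0.0151). It is not an exact size, since the Ndufa8 probe was well above background on only 1 of the 2 serum arrays, and without serum replicate 1, the array below background, it was 1.27. Ndufa5, a subunit of the matrix arm, read 2.18 and 3.06 in serum and 4.11, 4.15 and 4.42 with oleic acid (difference 1.61, SE 0.40, limma adjusted p = 0.0234). Both genes kept the oleic acid arrays above the serum arrays without overlap. Ndufs5, another subunit with paired cysteine motifs, read 1.77 and 3.22 in serum and 4.16, 3.91 and 4.05 with oleic acid (difference 1.55).

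The membrane-arm subunits Ndufc2, Ndufc1 and Ndufb6 rose by 1.51, 1.49 and 1.43 on the log2 scale. In each, the first serum array lay more than 1 log2 unit below the second: Ndufc1, for example, read 1.098 and 2.86 in serum and 3.39, 3.44 and 3.57 with oleic acid. The first serum array was also the lower one in Ndufb5 (1.37), Ndufb3 (1.34), Ndufb2 (1.24), Ndufb11 (1.199) and Ndufa12 (1.096), all called at 24 h. Ndufab1, the acyl carrier protein, was the member nearest the detection limit, with its probe above background on 25 arrays, and just outside it a further probe of Ndufb5 reached 11. Ndufab1 differed by 0.36 at 24 h with overlapping groups (limma adjusted p = 0.582).

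Complex I assembly factors, which build the complex but do not stay in it, had a median difference of 0.90, and 3 of 5 rose. Atp5sl, whose RefSeq name is Dmac2, read 1.28 and 2.47 in serum and 3.40, 3.24 and 3.41 with oleic acid (difference 1.48, SE 0.39, limma adjusted p = 0.0257). Despite its array name it is counted here with the assembly factors of complex I. Ndufaf1 rose by 1.23 and Ndufaf4 by 0.90, while Ndufaf2 and Ndufaf3 did not pass.

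Complex II links the citric acid cycle to the respiratory chain, and 1 of its 4 genes rose. Sdhb, the iron-sulfur subunit, read 2.87 and 4.37 in serum and 4.87, 4.95 and 4.91 with oleic acid (difference 1.29, SE 0.39, limma adjusted p = 0.0310). The flavoprotein Sdha read 1.84 and 3.23 in serum and 3.68, 3.66 and 3.41 with oleic acid, and its difference of 1.05 missed the threshold (limma adjusted p = 0.0511). The membrane anchor Sdhd, at 2.09 and 3.38 in serum and 3.45, 3.75 and 3.47 with oleic acid, had a difference of 0.82 (limma adjusted p = 0.0801). The other anchor, Sdhc, overlapped between groups: its serum arrays read 1.26 and 2.91 and its oleic acid arrays 2.66, 2.73 and 2.89 (difference 0.67). Without serum replicate 1 its difference was -0.15. These are values of the probe used, and another Sdhc probe, given below, had a larger difference that passed the threshold.

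In complex III, 4 of 9 genes rose and the median difference was 0.92. Uqcr10, a small subunit, read 2.90 and 4.07 in serum and 4.70, 4.48 and 4.81 with oleic acid (difference 1.18, SE 0.40, limma adjusted p = 0.0399). The Rieske iron-sulfur protein Uqcrfs1 rose by 1.22, Uqcrq by 1.12 and cytochrome c1 (Cyc1) by 0.92. The core proteins Uqcrc1 and Uqcrc2 had differences of 0.65 and 0.99 and did not pass.

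Complex IV had a median difference of 0.79, and 3 of its 16 genes rose: Cox5b, Cox7a2 and Cox7a2l. That share lay near the 18.1% of all genes called as higher. The order of the complexes rested on serum replicate 1: without it the medians of complexes I to V were 0.35, 0.27, 0.37, 0.38 and 0.36. Cox5b, a subunit that binds zinc on the matrix side, read 2.74 and 4.18 in serum and 4.40, 4.73 and 4.97 with oleic acid (difference 1.24, SE 0.40, limma adjusted p = 0.0362). That probe is placed on chromosome 15, off the Cox5b gene on chromosome 1, where a second probe differed by 1.41 (limma adjusted p = 0.0302 over probes). Cox7a2l, counted here with complex IV, rose by 1.24 and Cox7a2 by 1.101. Cox4i1, the common form of subunit 4, had a difference of 0.79 with overlapping groups. Cox6a1 (0.45), Cox8a (0.60) and Cox6b1 (1.07) did not pass, and Cox6a1 turned to between -0.22 and -0.06 under the other 3 scalings and in the authors' deposited values. Ndufa4, named after complex I but a subunit of complex IV, had a difference of 1.04 and did not pass (limma adjusted p = 0.0746).

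Of the 4 measured tissue isoforms of complex IV, Cox4i2 and Cox6b2 had differences below 0 at 24 h, and none of the 4 passed the test. Cox4i2, the subunit 4 isoform best known from lung, read 0.44 and 0.49 in serum and -0.42, -0.89 and -0.31 with oleic acid at 24 h. It was the only member whose oleic acid arrays all lay below the serum arrays at 24 h, a pattern that 15.8% of all genes had (difference -1.004, SE 0.55, limma adjusted p = 0.158), and the difference was -1.03 without serum replicate 1. At 1, 1.5 and 3 h its differences were -0.37, -0.85 and -1.14, and at 4 and 18 h they were 0.07 and 0.29. Cox6b2, the testis isoform, read 3.71 and 2.49 in serum and 2.86, 2.25 and 2.34 with oleic acid (difference -0.61), and its difference was 0.00059 without serum replicate 1. The muscle isoforms Cox6a2 and Cox7a1 had differences of 0.78 and 0.52 at 24 h, neither past the threshold. Ndufa4l2, Cox7b2, Cox8b and Cox8c were above background on at most 2 arrays and Atp5s on 10, so these 5 genes were not measured.

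Lung markers moved with the serum arrays at 24 h. Of 10 lung epithelial and endothelial genes, 3 were measured (Scgb1a1, Ager and Sftpd), and their mean level was 0.84 and -0.38 in the serum arrays and between -2.93 and -2.70 in the oleic acid arrays. Over the other groups that mean ran between -3.50 and -1.05 on each array. Scgb1a1, a secreted protein of airway club cells, fell by 5.17 with oleic acid relative to serum (limma adjusted p = 0.00193), whereas Sftpc, Sftpb and Sftpa1, the surfactant genes that define alveolar cells, were not measured. The part of lung RNA in the difference of Cox4i2, or of the other members, was not tested.

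ATP synthase genes had a median difference of 0.89 at 24 h, and 6 of 15 rose. Atp5g1, Atp5g2 and Atp5g3 are separate genes for the same subunit of the rotating c ring. Atp5g1 read 2.82 and 4.23 in serum and 4.75, 4.89 and 4.85 with oleic acid (difference 1.31, SE 0.35, limma adjusted p = 0.0257). Atp5g3 rose by 1.35, and Atp5g2, at 1.12, missed the threshold (limma adjusted p = 0.0516). Of the catalytic head, 1 of 5 genes rose: Atp5c1, the central shaft, by 1.24. Atp5j, a part of the stator stalk, rose by 1.41, from 1.75 and 3.20 in serum to 3.81, 3.95 and 3.91 with oleic acid. Atp5k and Atp5f1 rose by 1.14 and 1.13. Cox4nb, which the rule takes in by name, is Emc8 in RefSeq, a gene of another membrane complex, and had a difference of 0.20.

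**Figure D3:**
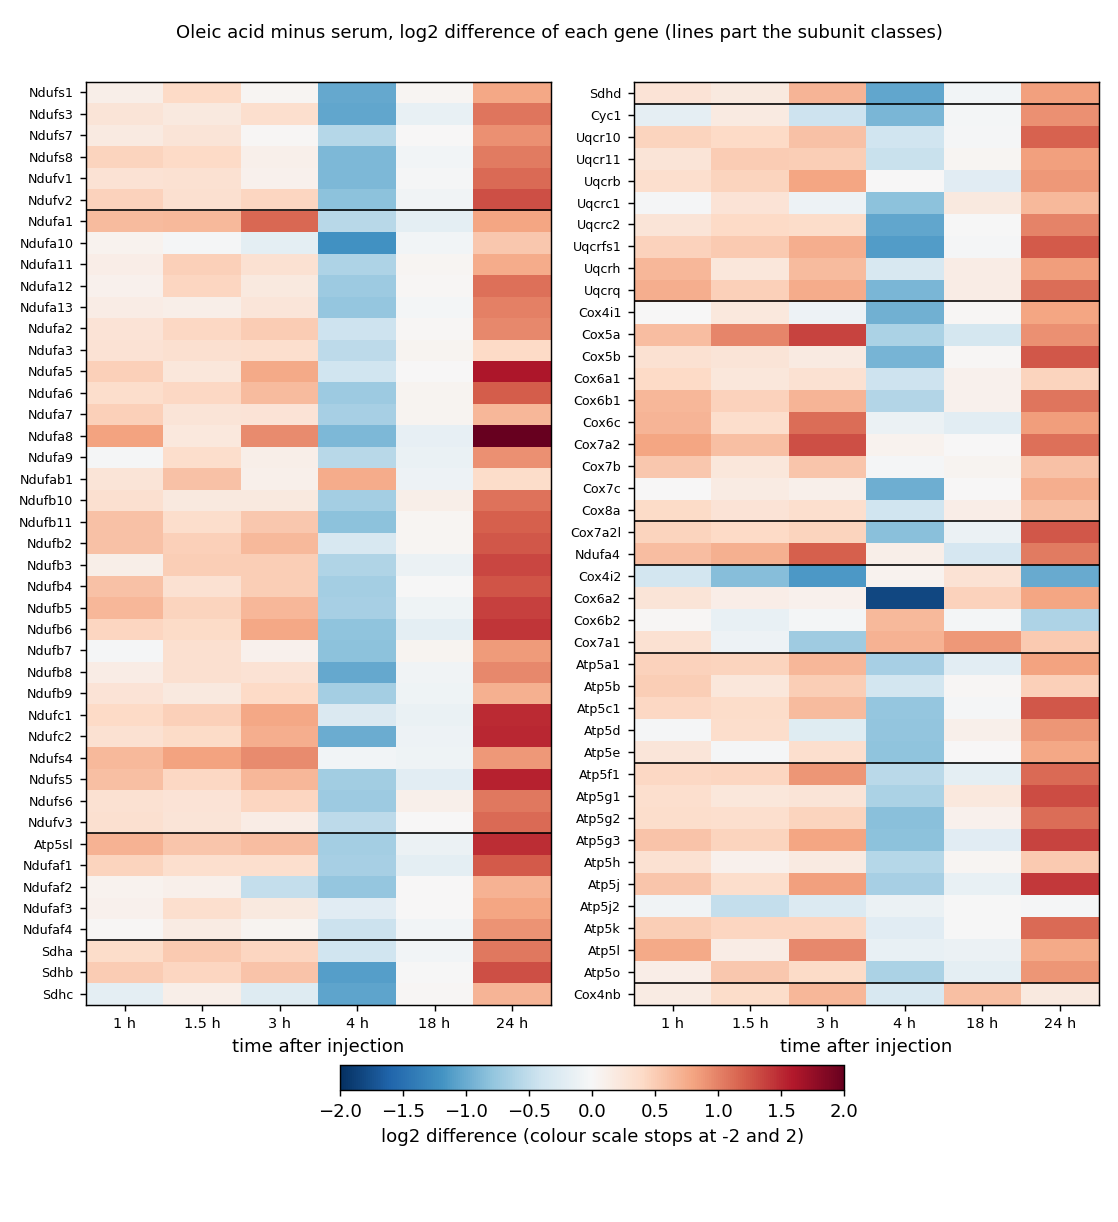
Rows are 85 of the 86 genes, parted by lines into subunit classes from complex I core at the upper left to complex V and Cox4nb at the lower right, and columns are the 6 times. Colour gives the log2 difference of oleic acid minus serum, red above 0 and blue below 0, with the scale stopping at -2 and 2. The 24 h column is red for 82 of the genes drawn and the 4 h column blue for 78.

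At 4 h the members lay the other way, with a median difference of -0.67 against -0.45 for all genes, and 79 of 86 were below 0, whereas 28.2% of all genes were above 0. None of the 86 passed by limma, 7 had an unadjusted p under 0.05 (9.81% of all genes), and 0% of all genes were called. In 54 genes both oleic acid arrays lay below the single serum array, against 52.4% of all genes. Cox6a2 had the lowest p-value of complex IV, reading -0.02 in serum and -2.02 and -1.66 with oleic acid (difference -1.82, limma adjusted p = 0.500). Sdhd, at 4.10 in serum and 3.47 and 2.64 with oleic acid, had a difference of -1.04, and Ndufs1, at 3.74 against 3.20 and 2.25, one of -1.02. In complexes III and V the lowest p-values belonged to Uqcrc2 (-1.04) and Atp5e (-0.80). Without oleic acid 4 h replicate 2 the median was -0.15, and without replicate 1 it was -1.18. Under the other 3 scalings and in the authors' deposited values it lay between -0.16 and -0.10.

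In the first 3 h the differences were smaller and mostly above 0. The median was 0.34 at 1 h, 0.34 at 1.5 h and 0.43 at 3 h, against 0.07, 0.20 and 0.09 for all genes, and 78, 80 and 75 of 86 members were above 0 (55.3%, 65.4% and 55.9% of all genes). No member passed at these times by limma, where 0% of all genes were called, and unadjusted p-values under 0.05 numbered 4, 0 and 10, against 5.26%, 10.3% and 9.97% of all genes. At 1.5 h all 3 oleic acid arrays lay above all 3 serum arrays in 30 genes, against 22.7% of all genes, and at 3 h this held for 32 genes, against 21.3%. At 1 h it held for 8 genes, against 3.55% of all genes. The sizes depended on the scaling. Under the other 3 scalings and in the authors' deposited values the member medians were between 0.18 and 0.23 at 1 h, between 0.117 and 0.125 at 1.5 h and between 0.19 and 0.30 at 3 h. At 1.5 h quantile normalization gave 0.117 beside 0.10 for all genes. The 1 h median was 0.14 with the slide block, and with the intergenic signal as a covariate the medians were 0.0065 at 1 h and -0.0474 at 1.5 h.

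The largest differences at 3 h belonged to Cox5a, Cox7a2, Ndufa4, Ndufa1 and Cox6c. Cox5a, a subunit on the matrix side of complex IV, read 6.01 and 5.90 in serum and 6.82, 7.33 and 7.74 with oleic acid (difference 1.35, SE 0.55). Cox7a2 read 3.29 and 2.61 in serum and 3.72, 4.05 and 4.94 with oleic acid (difference 1.28, SE 0.39, limma adjusted p = 0.481). Ndufa4 read 3.17 and 2.90 in serum and 3.80, 4.35 and 4.55 with oleic acid (difference 1.195). In all of these the oleic acid arrays lay above the serum arrays, and replicate 3, a slide 5 array, was highest. Ndufa1, an accessory subunit of complex I, differed by 1.15 and Cox6c by 1.11, and without oleic acid replicate 3 the median over the 86 genes was 0.24. At 1.5 h the lowest p-values of their complexes belonged to Cox5a (0.98), Ndufs4 (0.80), Atp5o (0.55), Sdha (0.53) and Uqcr11 (0.50). At 1 h they belonged to Cox7a2 (0.79), Atp5l (0.76), Uqcrh (0.66), Ndufa1 (0.63) and Sdhb (0.51).

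At 18 h the members showed no common direction: 40 of 86 were above 0 (41% of all genes), the median was -0.01, and none passed by limma, with 0% of all genes called. With slide as a block the median was -0.18, with 12 of 86 above 0. No member had an unadjusted p under 0.05, against 0.658% of all genes. Cox7a1 had the lowest p-value, with serum arrays at -0.90 and -0.44 and oleic acid arrays at -0.99, -0.18 and 1.75 (difference 0.86, SE 0.51). A single oleic acid array thus carried this difference. Ndufb6 (-0.20), Uqcrb (-0.22), Atp5g1 (0.21) and Sdhd (-0.05), lowest by p in the other complexes, all overlapped between groups.

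Averaged over the 6 times, 77 of 86 members were above 0 (56.3% of all genes), with a median of 0.26 against 0.05 for all genes and 0.08 for always-detected genes. Under the other 3 scalings and in the authors' deposited values the median was between 0.14 and 0.19, with the slide block 0.16 and with the intergenic covariate 0.0346. None passed by limma, and 0% of all genes were called, while 23 members above 0 and 1 below had an unadjusted p under 0.05 (17.6% of all genes). Cox7a2 had the lowest p-value, with a mean difference of 0.64 (SE 0.16, limma adjusted p = 0.217). Its oleic acid mean was above its serum mean at each of the 6 times, by as little as 0.0035 at 18 h and 0.07 at 4 h. Ndufa5 (0.45), Atp5k (0.37), Uqcrh (0.36) and Sdha (0.32) had the lowest p-values of the other complexes. The F test of whether the treatment difference varied between the 6 times called 0 of 86 members and 0% of all genes, with 10 members and 13.4% of all genes at an unadjusted p under 0.05.

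Serum and oleic acid arrays were also compared between late times (18 and 24 h) and the 4 earlier times. In serum the median over members was -0.16, with 23 of 86 above 0 (37.2% of all genes). With oleic acid it was 0.20, with 79 of 86 above 0 (63.1% of all genes). The late minus early change in the treatment difference had a median of 0.41 against 0.27 for all genes, with 75 of 86 above 0 (70.3% of all genes). Under the other 3 scalings and in the authors' deposited values, the serum median lay between -0.0196 and 0.0021, with 39 to 43 of 86 above 0. The oleic acid median lay there between 0.0801 and 0.11, and with the intergenic covariate it was -0.0190. The median change in the treatment difference lay there between 0.14 and 0.19, and was below that of all genes with quantile normalization (0.193 against 0.216) and in the authors' values (0.154 against 0.167). No member passed in any of these 3 contrasts by limma. In serum 0.441% of all genes were called (0.0744% higher and 0.366% lower), with oleic acid 0.355% (0.275% higher and 0.0801% lower), and for the treatment difference 0%. Unadjusted p-values under 0.05 numbered 4 members in serum (12% of all genes), 2 with oleic acid (11%) and 4 for the treatment difference (9.05%). Ndufab1 was higher late in both, by 1.17 in serum (limma adjusted p = 0.135) and by 0.88 with oleic acid (limma adjusted p = 0.196), without passing. F tests over times called 0 members in serum (0.126% of all genes) and 0 with oleic acid (0.263%), with 2 and 4 members at an unadjusted p under 0.05 (14.5% and 16.1% of all genes).

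Of the 86 genes, 29 had more than 1 measured probe, and at 24 h the probes of 27 agreed in sign. Ndufv3 rose by 1.13 at the probe used (mm9 chr17:31668209-31668268). At 2 probes further upstream in the same gene, chr17:31665148-31665207 and chr17:31663758-31663817, it had differences of -0.49 and -0.86, neither past the threshold (limma adjusted p = 0.228 and 0.0756). Atp5j2, subunit f of the ATP synthase, differed by -0.02 at the probe on chr5:145948011-145948070, and by 1.28 at a probe of the same name placed on chr9:21897298-21897357 (limma adjusted p = 0.0311). Which of the probes reads the Atp5j2 transcript was not tested, and Atp5j2 is uncertain for that reason. RefSeq gives another chromosome than the probe file for the probe that reads 3 of the 86 genes: Cox5b, Atp5k and Atp5l. For Atp5k, read by a probe on an unplaced sequence, a probe on chromosome 5, where the gene lies, differed by 1.23. For Atp5l, read by a probe on chromosome X, the 5 probes on chromosome 9, where the gene lies, differed by between 0.59 and 0.87, beside 0.76 at the probe used. For Sdhc the second probe differed by 1.69 (limma adjusted p = 0.0284) against 0.67 at the probe used. At 18 h, where differences were near 0, the probes of 17 of the 29 genes disagreed in sign.

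Genes that serve the respiratory chain were taken from lists, each with a median difference above 0 at 24 h. Their counts stand beside 18.1% of all genes called as higher at 24 h, and no test set a list apart. Of 14 genes for cytochrome c, quinone synthesis and carriers (median 0.88), 7 rose, among them Cycs (1.54), which encodes cytochrome c, and the ATP/ADP carrier Slc25a5 (1.81). Of 15 genes for copper, heme and assembly of complex IV (median 0.82), 6 rose, and Cox10, which makes the precursor of heme a, fell by 2.15. Of 8 further complex I assembly genes (median 0.76) 3 rose, with Nubpl, an iron-sulfur carrier for complex I, at 2.03, and of 12 assembly genes of complexes II, III and V (median 0.63) 2 rose. Of 16 citric acid cycle genes (median 0.90) 3 rose, including citrate synthase (Cs, 1.15). Of 12 regulators of mitochondrial biogenesis (median 0.83) 3 rose: Tfb2m (1.79), Esrra (1.65) and Nrf1 (1.13). The 7 subunits encoded in mitochondrial DNA, a list added after the probe names had been seen, had a median of 0.61, and none of them passed.

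In the mean over all times, no gene of these lists passed by limma. The lowest p-values belonged to Fam36a (0.44) and Lrpprc (0.43) for complex IV, Nubpl (0.41) and 4930455C21Rik (-0.37) for complex I assembly, and Cycs (0.43) and Slc25a5 (0.38) for carriers. For biogenesis they were Tfb1m (0.58) and Pprc1 (0.35), and for assembly of complexes II, III and V 1110058L19Rik (0.36) and Sdhaf2 (0.39). Fh1 (0.27) and Suclg2 (0.24) led the citric acid cycle, and ND1 (0.24) and CYTB (0.17) the mitochondrial genes.

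Other abundant machinery and cell markers were set beside the members at 24 h, where 18.1% of all genes were called as higher. Cytosolic ribosomal proteins had a median difference of 1.01 with 33 of 86 rising, mitochondrial ribosomal proteins 1.03 with 39 of 76, and proteasome subunits 0.88 with 11 of 37. The members, at 0.96 with 36 of 86, lay within that range, and no test set them apart. Serum 24 h replicate 1 had the lowest mean level of the 30 arrays in each of these sets. Monocyte markers had a median of 2.05 and 7 of 11 rose, and B cell markers 1.06 with 6 of 13. T cell markers had a median of 0.62 with 0 of 14 called, NK cell markers 0.91 with 0 of 10, platelet markers 0.07 with 0 of 14, neutrophil markers 0.14 with 0 of 15 and erythroid markers -0.48 with 0 of 13. The mean monocyte level was 0.64 and 1.91 in the serum arrays and 3.31, 3.57 and 3.27 in the oleic acid arrays, so it moved with the members. Its part in the 24 h difference was not tested. At 4 h monocyte markers had a median of -1.24 and neutrophil markers -1.33, beside -0.67 for the members.

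**Figure D4:**
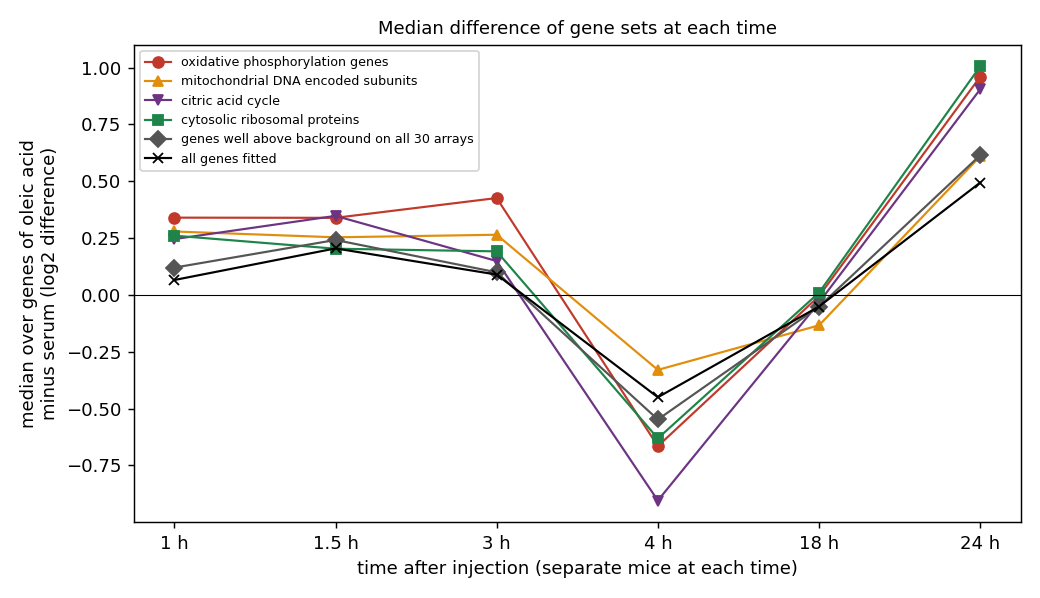
The x axis gives the time after injection, with separate mice at each time, and the y axis the median over genes of the log2 difference of oleic acid minus serum, with 1 line for each gene set. Oxidative phosphorylation genes (red) stand at 0.43 at 3 h, -0.67 at 4 h and 0.96 at 24 h. All genes fitted (black) follow the same course at 0.09, -0.45 and 0.49.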

How the data were processed

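Scanner files of 30 mouse arrays were used. Per the file headers, the deposited scanner intensity values are linear processed signals, corrected for background within each array, and the submitters' processing notes name Feature Extraction 10.5.1.1. The files place probes in mm9, and their chromosomes were set against those of the RefSeq genes (GRCm38.p6). The authors' deposited value table tracks log2 scanner signals. The sources used here do not give its centring, scaling and background correction. Its 62927 rows have column medians of 5.35 to 5.36, and it served as an alternative. Over always-detected probes, all 30 of its arrays best matched the same array after normexp and quantile normalization. The median correlation was 0.994, against 0.967 with signals relative to the 75th percentile. The authors' values and the normexp alternative are therefore close to each other and not separate checks.

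Control and outlier spots were left out, and log2 signals were set relative to the 75th percentile of their array. Genes were read by the probe of highest mean among those well above background on at least 15 arrays. A 12-group model was fitted with limma 3.58.1 (R 4.3.3, 18 residual degrees of freedom, prior 5.39) and run on simulated data. The simulated noise was independent between genes and arrays, with no shift of whole arrays, slides or scan days. It could therefore not show how the model handles arrays that differ as a whole. All tests were two-sided with Benjamini-Hochberg adjustment over all genes, and the single 4 h serum array is assumed to vary like the others.

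The members and lists were chosen with earlier results of these data known. Named are called members (at most 20 per contrast), the smallest p per complex and contrast, complex II, isoform families, members not measured and 2 genes per pathway list. Further called members, and those used as examples of a class, were named after their values were seen. Alternatives covered scaling, background correction, the authors' values, filters, probes, slide and replicate blocks, the intergenic signal and each array left out. Leaving out 3 arrays together and the second scan day were added after seeing the data. Replicate numbers only name arrays: of 12 same-numbered pairs, 5 correlated above 0.1 (range -0.49 to 0.55).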

Additional observations from a re-analysis of the deposited data

Results flagged for a closer look

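The mean level of the 86 genes per array moved in opposite directions at 24 h and 4 h. It was 0.94 (log2) higher with oleic acid at 24 h, where the 3 oleic acid arrays (4.12 to 4.24) lay above both serum arrays (2.68 and 3.80). At 4 h the difference was -0.59 (log2), where both oleic acid arrays (3.90 and 2.91) lay below the single serum array (4.00). Every oleic acid array of each comparison thus lay on the stated side of serum. At 4 h, however, there was a single serum array (4.00) and one oleic acid array (3.90) lay close to it. The difference between these means was not tested. The median differences over all genes had the same directions, 0.49 at 24 h and -0.45 at 4 h. With arrays scaled on the always-detected probes, the median member differences were 0.45 and -0.10, against -0.0176 and 0.11 for all genes. Per gene, the F test over the 6 times called 0 of 86 members and 0% of all genes by limma with Benjamini-Hochberg adjustment. The groups hold at most 3 arrays, so no test for outlying arrays was run within groups, but each array was left out in turn. Without serum 24 h replicate 1 the median member difference at 24 h was 0.36. Without oleic acid 4 h replicate 2 the median member difference at 4 h was -0.15.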

How the results depend on the processing

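The 24 h count of 36 called members moved with almost every choice on scaling, batch and arrays. It was 10 with always-detected scaling, 19 with quantile normalization, 20 with normexp and quantile normalization, and 15 in the authors' deposited values, beside 12.8%, 26.0%, 20.5% and 20.0% of all genes. It was 0 with the slide block, with the intergenic covariate and without the second scan day, beside 0.0114%, 0.0114% and 0.0343% of all genes. It was 39, 41 and 49 with the other filters and with all kept probes (29.7%, 25.8% and 21.6% of all genes or probes). A further fit left out the 3 arrays of highest intergenic signal (serum 24 h replicate 1, oleic acid 4 h replicate 2 and serum 1.5 h replicate 3), which leaves 1 serum array at 24 h. The corresponding 24 h medians (0.96) were 0.45, 0.50, 0.43 and 0.46 under those scalings, 0.0525 with the covariate and 0.36 without the 3 arrays. Of all genes called at 24 h, 78.9% were higher, against 46.1% with always-detected scaling and 44.0% with the filter of 3 arrays. The 4 h median (-0.67) was -0.10, -0.11, -0.12 and -0.16 under those scalings, 0.0671 with the covariate and -0.15 without the 3 arrays. With the covariate the 1.5 h median was -0.0474. The median late minus early treatment difference was -0.0403 with the covariate and -0.0242 without the 3 arrays.

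Counts that were 0 became 1 for late minus early in serum (always-detected scaling and covariate), 1 for late minus early in oleic acid (covariate), and 1 (quantile) or 2 (covariate) for the F test over oleic acid times. For late minus early in serum with always-detected scaling, 1.51% of all genes were called. The other counts stand without the share of all genes, so they are not a result about the members. The replicate block left 9 of the 36 calls at 24 h, beside 11.0% of all genes, and moved no other count of calls. Leaving out each array in turn gave 0 to 70 calls and medians of 0.36 to 1.65 at 24 h, and medians of -1.18 to -0.15 at 4 h. The other medians ran from 0.22 to 0.55 for 1 h, 0.23 to 0.45 for 1.5 h, 0.24 to 0.60 for 3 h, -0.22 to 0.17 for 18 h and 0.16 to 0.34 for the mean. The calls ran from 0 to 12 for the late minus early treatment difference (median 0.09 to 0.73), 0 to 24 for serum late minus early (-0.49 to 0.13), 0 to 35, 0 to 13 and 0 to 1 for the F tests over treatment difference, serum and oleic acid. The counts of 12, 24, 35 and 13 came without serum 24 h replicate 2, and the count of 1 without oleic acid 1.5 h replicate 2. The oleic acid late minus early median ran from 0.07 to 0.32. The cause was not tested.

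At 24 h Cox6a1 reversed to -0.0603, -0.19, -0.22 and -0.12 under always-detected scaling, quantile, normexp with quantile and the authors' values, and Cox8a to -0.0275 under quantile normalization and -0.0318 with the covariate. With the covariate the values were Sdha -0.0243, Sdhc -0.29, Sdhd -0.00784, Cox4i1 -0.00499, Cox6b2 0.15, Cox7a2l -0.00866, Atp5g2 -0.10, Atp5g3 -0.23 and Ndufa4 -0.16. Without serum 24 h replicate 1, and without the 3 arrays, Sdhc was -0.15 and Cox6b2 0.000592. Over all arrays left out in turn, Cox6b2 ran from -1.23 to 0.000592 at 24 h and Sdhd at 18 h from -0.28 to 0.17 (0.17 without serum replicate 2, 0.10 without oleic acid replicate 3). Within slides that hold both treatments, medians were -0.00144 (1 h), -0.0235 and 0.66 (1.5 h), 0.47 (3 h), -1.18 (4 h) and -0.16 (18 h).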
